A study of Mus musculus with 18 samples.

Results

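Expression of the oxidative phosphorylation genes was examined in mouse livers and liver tumours. Genes were taken by their symbols, which began with Nduf, Uqcr, Atp5 or Cox4 to Cox8, were Sdha, Sdhb, Sdhc, Sdhd or Cyc1, or began with mt-Nd, mt-Co, mt-Cytb or mt-Atp. Members were then chosen by their measured level, a mean of at least 1 TPM over all 18 samples (TPM corrects read numbers for gene length and gives every sample the same total). Of 121 symbols that matched among 54838 genes, 9 with -ps in the symbol (the usual mark of a pseudogene) and 5 others below 1 TPM were left out. This left 107 genes, 94 encoded in the nucleus and 13 in the mitochondrial genome. Just inside the limit was Cox8b at 1.66 TPM and just outside was Cox4i2 at 0.914 TPM. Ndufb1-ps was left out by its symbol at 111 TPM. Atpif1, which encodes the inhibitory factor of the ATP synthase, does not begin with Atp5 and is no member.

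RNA had been sequenced from 6 groups of 3 samples of C57BL/6 mice, all with a labelled age of 36 weeks. Wild type (WT) mice and mice with a global knockout of miR-181ab1 (GKO, a constitutive loss of the microRNA genes Mir181a-1 and Mir181b-1 in every tissue) each gave tumours, non-tumour liver and normal liver. Tumours and non-tumours came from mice injected intraperitoneally with diethylnitrosamine (DEN, a liver carcinogen), 25 mg/kg as a single dose on postnatal day 12 by the labels, to male pups by the study's methods, and normal livers came from untreated mice. Which non-tumour belongs to the mouse of a given tumour is not in the labels. A legend on mRNA levels of tumours and non-tumours in the supplement names 3 mice for each group, and whether the normal livers came from separate mice is not given in the sources used here. The p-values measure only the spread between these samples.

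Oxidative phosphorylation makes most of the ATP of a liver cell. Complex I (NADH dehydrogenase) and complex II (succinate dehydrogenase) pass electrons to ubiquinone, complex III passes them to cytochrome c, complex IV (cytochrome c oxidase) reduces oxygen, and complex V (ATP synthase) uses the resulting proton gradient. The mitochondrial genome supplies core subunits of every complex apart from complex II, and its genes are transcribed by a separate polymerase as long joined transcripts that are cut into single RNAs, while the other subunits are nuclear genes whose proteins are imported.

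Reads on genes, recovered as TPM multiplied by exonic length, ranged from 11921759 to 20745966 per sample. Mir181a-1 was listed at 0 in all samples except GKO tumour 3, and Mir181b-1 in all 18, so these precursors do not check the genotype labels. WT tumours 1 and 2 resembled each other most among the tumours, with a Pearson r of 0.980 across 13964 genes against 0.908 to 0.949 for the other pairs. The 10 hepatocyte markers were detected in every group. Their summed level was 64957 to 98219 TPM in normal livers and non-tumours and 177588 to 211028 TPM in tumours. Alb (albumin) alone took 2.29% to 4.41% of all TPM outside tumours and 8.36% to 14.0% in tumours. Because TPM has a fixed total, a share taken by Alb or by the mitochondrial genes lowers the values of other genes. Values rescaled without the mitochondrial genes are given for some results, and without Alb only where stated.

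The nuclear genes include 46 of complex I (7 core subunits, 29 accessory subunits, 8 assembly factors and 2 copies), 4 of complex II, 9 of complex III, 18 of complex IV and 17 of complex V. They lie on 19 chromosomes. Their upstream sequences were looked up in RefSeq (GRCm38.p6), which listed 78 promoters for 73 of the 94 genes, each from 250 bases before to 50 bases after the start. Exact words of 3 factors known to act on such genes were searched on both strands, and none of the words lies within another. GCGCATGC, the word of NRF1 (nuclear respiratory factor 1), was in 15.4% of member promoters and in 2.71% of all 32851 promoters. CCGGAAG, a core of ETS family sites such as those of GABPA, was in 23.1% and 8.86%. AAGATGGC, the word of YY1, was in 12.8% and 2.75%. At least 1 of the 3 was in 42.3% of member promoters and in 13.3% of all, while the median GC content was 58.0% and 52.7%. Below are the promoters of Cox6a1, the nuclear gene with the highest mean level, Sdhb, a complex II gene, and Ndufa3, which fell in GKO tumours. Capitals mark the words found, and coordinates are of GRCm38 (Cox6a1 chr5:115348909-115349208, minus strand, Sdhb chr4:140961021-140961320, plus strand, and Ndufa3 chr7:3617123-3617422, plus strand).
Cox6a1: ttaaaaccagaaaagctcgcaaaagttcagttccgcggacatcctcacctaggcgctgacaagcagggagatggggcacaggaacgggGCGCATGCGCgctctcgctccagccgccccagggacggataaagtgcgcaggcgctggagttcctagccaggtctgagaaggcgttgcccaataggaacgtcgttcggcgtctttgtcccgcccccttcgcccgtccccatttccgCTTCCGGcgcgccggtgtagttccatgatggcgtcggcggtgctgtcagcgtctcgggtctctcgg
Sdhb: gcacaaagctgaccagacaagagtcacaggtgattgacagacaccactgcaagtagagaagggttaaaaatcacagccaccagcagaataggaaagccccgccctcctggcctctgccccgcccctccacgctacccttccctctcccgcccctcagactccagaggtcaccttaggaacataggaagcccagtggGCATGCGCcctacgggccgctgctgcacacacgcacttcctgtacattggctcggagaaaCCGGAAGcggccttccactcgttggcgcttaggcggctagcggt
Ndufa3: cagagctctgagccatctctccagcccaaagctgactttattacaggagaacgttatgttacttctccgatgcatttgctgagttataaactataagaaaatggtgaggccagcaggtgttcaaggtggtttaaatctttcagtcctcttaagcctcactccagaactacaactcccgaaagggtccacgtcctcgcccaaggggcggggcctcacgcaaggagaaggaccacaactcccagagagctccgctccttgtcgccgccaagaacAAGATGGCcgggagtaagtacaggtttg
In Cox6a1 the NRF1 word stands on both strands, overlapping itself, and the ETS word stands on the minus strand of the printed sequence. In Sdhb both words are present, and Ndufa3 holds the YY1 word just after its start.

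The 13 mitochondrial genes fell into 2 ranges of level. Between 3149 and 21250 TPM on average were mt-Co1, mt-Nd1, mt-Cytb, mt-Nd2, mt-Nd4, mt-Nd6 and mt-Nd5. Between 24.1 and 233 TPM were mt-Atp6, mt-Co2, mt-Co3, mt-Nd3, mt-Nd4l and mt-Atp8, which lie next to each other from position 7013 (the start of mt-Co2) to 10173 (the end of mt-Nd4l) of chromosome M. A stretch of chromosome 1 (24611535 to 24616197 of mm10, minus strand) holds annotated pseudogenes copied from this part of the mitochondrial genome. The annotated transcripts of mt-Co2, mt-Atp6, mt-Co3, mt-Nd3 and mt-Nd4l matched Gm28661, Gm10925, Gm28437, Gm28438 and Gm10222 with 0 mismatches over 681, 678, 783, 342 and 294 aligned bases. The first 60 bases of mt-Co3 (chrM:8607-8666) and of its copy (chr1:24613912-24613971, minus strand) show why reads of this stretch cannot be assigned to either place, with the start codon in capitals.
mt-Co3: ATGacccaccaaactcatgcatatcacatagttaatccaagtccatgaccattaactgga
Gm28437: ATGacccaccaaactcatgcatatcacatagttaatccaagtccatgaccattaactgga
In the deposited values mt-Co3 was at 567, 395 and 250 TPM in WT normal livers 1 to 3 and Gm28437 at 527, 363 and 247 TPM. In GKO tumours mt-Co3 was at 29.4, 32.9 and 10.9 TPM and its copy at 24.7, 33.4 and 9.18 TPM. Over the 18 samples the ratio of gene to copy lay between 0.985 and 1.29 for mt-Co3, 0.705 and 1.29 for mt-Co2 and 0.733 and 1.13 for mt-Atp6. It lay between 1.46 and 5.41 for mt-Nd3 and between 0.848 and 5.94 for mt-Nd4l. The ratio thus varied more for mt-Nd3 and mt-Nd4l than for the other 3, and the values of all 5 genes are uncertain. No annotated transcript outside the mitochondrial genome held a 50-base word of mt-Atp8, mt-Nd1, mt-Nd6 or mt-Cytb, but mt-Atp8 lies between mt-Co2 and mt-Atp6 and overlaps the latter, and it had as few as 2 reads. Among the 7 abundant genes, the words found elsewhere made up 62.2% of mt-Nd4 (in Gm28439), 51.1% of mt-Co1, 8.19% of mt-Nd2 and 7.61% of mt-Nd5. The 7 abundant genes are given separately below for this reason. Whether the counting used strand is not given in the sources used here, so reads of mt-Nd6 (minus strand) and of the opposite strand cannot be told apart.

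**Figure D1:**
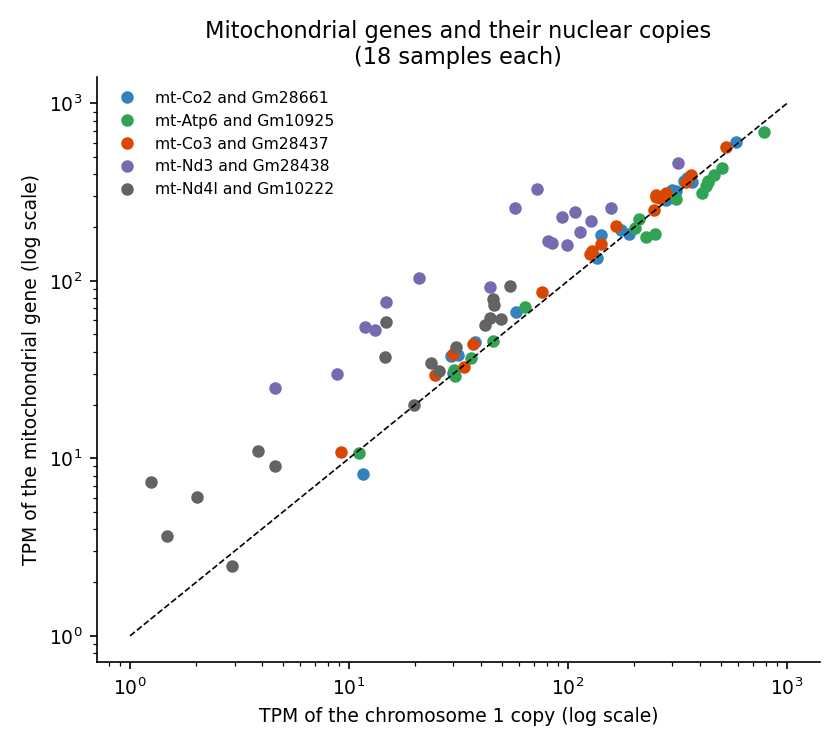
TPM of 5 mitochondrial genes (vertical axis, log scale) against TPM of their identical copies on chromosome 1 (horizontal axis, log scale), 1 point per sample, 18 samples each. The dashed line marks equal values, and mt-Co2, mt-Atp6 and mt-Co3 follow it from the highest to the lowest sample while mt-Nd3 lies above it in all 18.

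The nuclear genes added up to 30183 ± 2728 TPM (SD, n = 3) in WT normal livers and 29734 ± 3297 (SD, n = 3) in GKO normal livers. They were at 28732 ± 2528 (SD, n = 3) in WT and 29325 ± 1654 (SD, n = 3) in GKO non-tumours. In WT tumours they were at 22572, 25460 and 19129 TPM and in GKO tumours at 23588, 23401 and 22926 TPM. As deposited, all 6 tumours were below all 12 other samples, of which the lowest, WT non-tumour 3, had 25817 TPM. WT tumour 2 was close to it at 25460 TPM, with Alb at 10.7% of all TPM beside 3.93% in WT non-tumour 3. No sum was rescaled without Alb. Leaving Alb out of the total would raise WT tumour 2 more than WT non-tumour 3, so the separation holds only for values that include it. Rescaled to leave out the mitochondrial genes, the means were 35450, 34515, 30814 and 34057 TPM in WT normal livers, GKO normal livers, WT non-tumours and GKO non-tumours, and 23556 and 23932 TPM in WT and GKO tumours.

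The mitochondrial genes varied far more. They took 15.6%, 16.5% and 10.2% of all TPM in WT normal livers and 14.9%, 8.24% and 16.8% in GKO normal livers. In WT non-tumours they took 9.41%, 4.90% and 4.25% and in GKO non-tumours 9.34%, 20.2% and 9.42%. WT non-tumours 2 and 3 were thus below every other non-tumour and normal liver. In tumours the share was lower again, at 5.55%, 4.77% and 3.35% in WT and 2.29%, 2.94% and 2.19% in GKO, and each GKO tumour was below each WT tumour. Per nuclear TPM, mitochondrial genes stood at 4.75 ± 1.50 in WT and 4.61 ± 1.96 in GKO normal livers, 2.13 ± 0.867 and 4.51 ± 2.42 in WT and GKO non-tumours and 2.03 ± 0.379 and 1.06 ± 0.169 in WT and GKO tumours (SD, n = 3 each). In bulk tissue, fewer cells rich in these RNAs and less of the RNA per cell cannot be told apart.

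**Figure D2:**
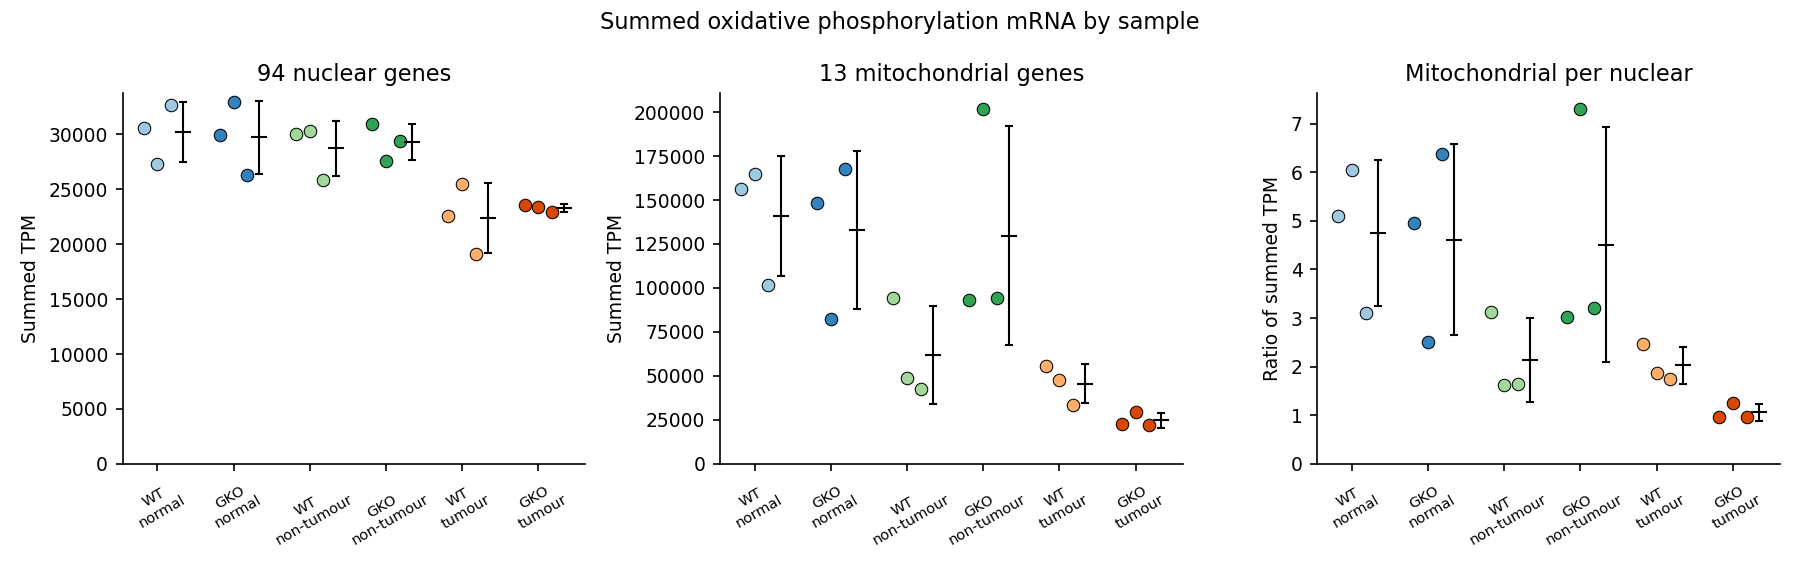
Summed TPM of the 94 nuclear genes (left), summed TPM of the 13 mitochondrial genes (middle) and their ratio (right) in each of the 18 samples, with the mean and SD of each group of 3 beside the points. Nuclear sums as deposited, not rescaled for Alb, were lower in all 6 tumours than in the other samples. Mitochondrial sums were lowest in the 3 GKO tumours, at 21925 to 29376 TPM.

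The 7 abundant mitochondrial genes were high and low in much the same samples, while their shares of their own sum varied. As a description over 18 samples, pairs of them had a median Pearson r of 0.950 on the log2 scale (lowest 0.896), pairs of the other 6 had 0.917, and pairs across the 2 ranges 0.864, all within libraries that share depth and scaling. Pairs of nuclear genes had a median of 0.290, with values from -0.903 to 0.967. Of the sum of the 7, mt-Cytb made up 17.7% to 21.8% in all samples outside WT non-tumours, in which it was between 13.02% and 22.2%. The share of mt-Nd1 was between 17.5% and 30.3% over the 18 samples. The share of mt-Co1, a catalytic subunit of complex IV, was 27.2% ± 7.18 (SD, n = 3) in GKO tumours and 20.1% ± 2.31 (SD, n = 3) in WT tumours, and these groups overlapped. The share of mt-Nd2 was 8.0%, 13.9% and 13.2% in GKO tumours and 14.0% to 15.1% in WT tumours, so all 3 GKO tumours lay below.

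**Figure D3:**
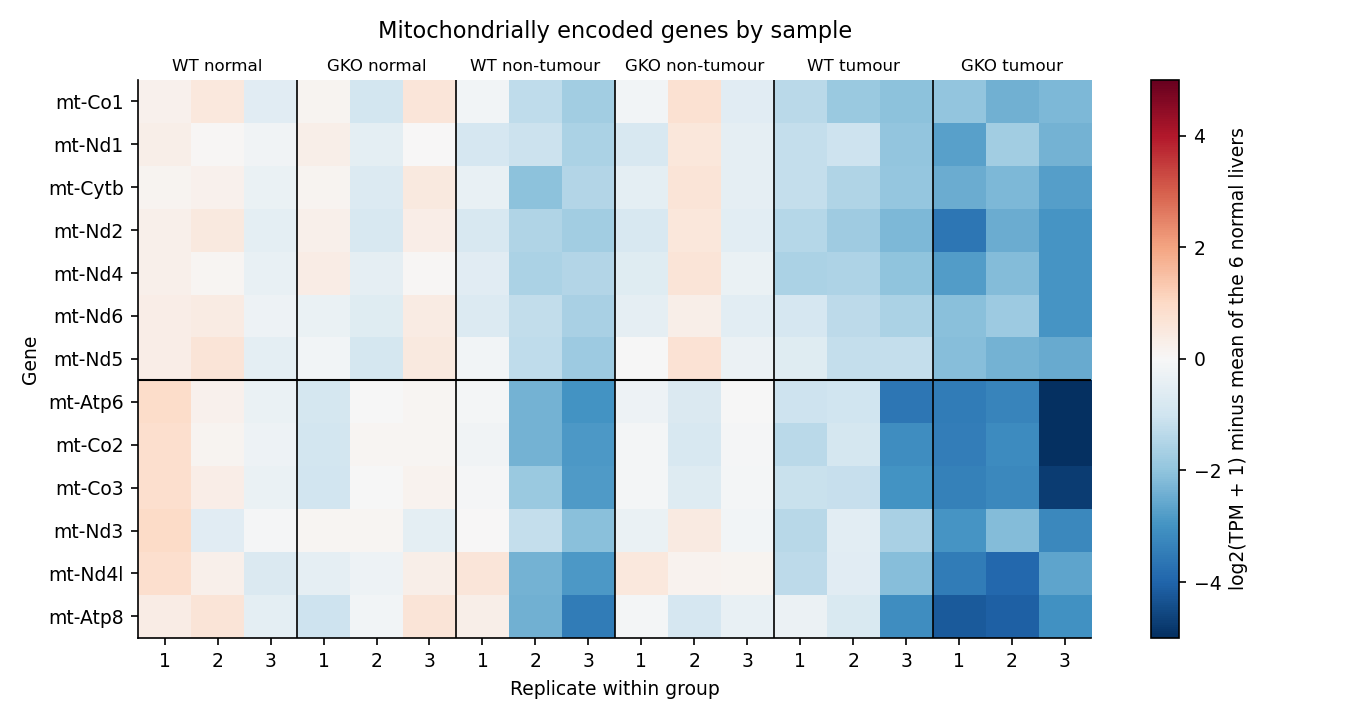
The 13 mitochondrial genes (rows) in 18 samples (columns, grouped and numbered by replicate), coloured by log2(TPM + 1) minus the mean of the 6 normal livers. The horizontal line parts the 7 abundant genes (above) from the 6 of the copied stretch and its neighbour mt-Atp8 (below), and blue fills the 3 GKO tumours in every row, with WT tumour 3 and WT non-tumours 2 and 3 also blue throughout.

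The effect of tumour growth in GKO mice was asked by comparing GKO tumours with GKO non-tumours. Here all 13 mitochondrial genes fell, together with 5 nuclear genes, and 1 nuclear gene rose (limma on log2(TPM + 1), Benjamini-Hochberg adjusted p under 0.05 over all genes). Among all 14092 genes tested 11.7% passed, 7.75% higher and 3.97% lower. The median log2 difference was -2.77 over the 13 mitochondrial genes, -2.40 over the 7 abundant ones and -0.24 over the nuclear genes, beside 0.20 over all genes. The count of 19 members fell to 8 without GKO non-tumour 3 (229 of 14126 genes) and to 12 without GKO tumour 3 (747 of 13987). Without the filter on low values it fell to 7, all mitochondrial (589 of 26005). It was 33 with voom on the recovered reads (1786 of 14084), and all 13 mitochondrial genes were among them. No nuclear gene was called without GKO non-tumour 3, without GKO tumour 3 or without the filter.

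Complex I takes 7 subunits from the mitochondrial genome. mt-Nd1 (chromosome M, 2751 to 3707) was at 16767, 42633 and 21036 TPM in GKO non-tumours and 4457, 8620 and 5651 in GKO tumours, a log2 difference of -2.04 (standard error 0.42, adjusted p = 0.0253). mt-Nd2 (3914 to 4951) was at 13032, 33606 and 15399 TPM and then at 1815, 4073 and 2890 (log2 difference -2.77, standard error 0.45, adjusted p = 0.0132). mt-Nd5 (11742 to 13565) went from 4065, 6823 and 3428 TPM to 953, 807 and 726 (log2 difference -2.47, standard error 0.31, adjusted p = 0.00737). For these 3 genes the lowest non-tumour was above the highest tumour, as it was for mt-Nd4 (log2 difference -2.54) and for mt-Nd6 (-2.07), the gene on the other strand. mt-Nd3 (-2.77) and mt-Nd4l (-3.63) belong to the copied stretch.

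mt-Cytb (14145 to 15288), the core of complex III, was at 18811, 40557 and 19205 TPM in GKO non-tumours and 4658, 5513 and 3872 in GKO tumours (log2 difference -2.40, standard error 0.35, adjusted p = 0.0103). mt-Co1 (5328 to 6872) was at 26806, 50311 and 19912 TPM and then at 7600, 5650 and 6334 (log2 difference -2.21, standard error 0.37, adjusted p = 0.0143). GKO non-tumour 2 was the highest sample for each of these genes, and without it the median of the 13 was -2.35. mt-Co2 and mt-Co3, also of complex IV, and mt-Atp6 and mt-Atp8 of complex V, all with uncertain levels, had log2 differences of -3.61, -3.51, -3.60 and -3.34. mt-Atp8 rested on few reads, with 1.06, 1.20 and 3.58 TPM in GKO tumours.

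Among nuclear genes in the same comparison, 67 of 94 had a negative difference. The 5 that fell, named after their values were seen, were 3 accessory subunits of complex I and 2 genes of complex IV. Ndufa3 (chromosome 7, 3617373 to 3620327) was at 367, 488 and 469 TPM in GKO non-tumours and 201, 234 and 155 in GKO tumours (log2 difference -1.17, standard error 0.26, adjusted p = 0.0315). Ndufa5 (-1.01, adjusted p = 0.0435) and Ndufb2 (-1.03, adjusted p = 0.0279) were the other accessory subunits, and Cox6c, a regulatory subunit of complex IV, had a difference of -0.999 (adjusted p = 0.0340). Cox6c2 (-1.50, adjusted p = 0.0218) is a copy of Cox6c with 6 to 41 reads per sample, and its level is uncertain. The groups did not overlap for any of the 5. Of 16 alternatives, the call was lost in 5 for Ndufa3, in 7 each for Ndufa5, Ndufb2 and Cox6c and in 3 for Cox6c2 (highest adjusted p = 0.139, 0.174, 0.180, 0.145 and 0.1001), and none turned the direction. In all, 40 nuclear genes were lower in every GKO tumour than in any GKO non-tumour, and with the 13 mitochondrial genes this made 53 of 107 members, beside 12.7% of all genes tested.

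The gene that rose was Ndufa4l2 (chromosome 10, 127514967 to 127517154), a hypoxia-inducible relative of the complex IV subunit Ndufa4. It was at 3.15, 3.73 and 5.78 TPM in GKO non-tumours and 19.9, 9.49 and 13.4 in GKO tumours, a log2 difference of 1.52 (standard error 0.31, adjusted p = 0.0264). The call was lost in 6 of 16 alternatives, namely without the filter, without any 1 of the GKO non-tumours and without GKO tumour 1 or 3, with an adjusted p of up to 0.0808. Over the 16 the difference lay between 1.27 and 1.76. Ndufa4 itself was at 721, 373 and 619 TPM and at 485, 442 and 434 (log2 difference -0.28, adjusted p = 0.536), with overlap.

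By complex, the median difference of nuclear genes was -0.26 in complex I, 0.41 in complex II, -0.22 in complex III, -0.47 in complex IV and -0.09 in complex V. Within complex I the 29 accessory subunits had a median of -0.35, with 26 negative, and the 7 core subunits a median of 0.08, with 3 negative. These groups also differed in exonic length, with a median of 1251 bases for accessory and 2178 for core subunits. Length moved with the difference in general: nuclear members under 1000 bases had a median of -0.48 (n = 24) and longer ones -0.21 (n = 70), and among the other genes with at least 30 TPM those under 1000 bases had -0.29 (n = 222) and longer ones 0.26 (n = 2003). The part of length in the result was not tested.

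None of the listed nuclear subunits, taken for a core or otherwise well-known role, passed the test. Atp5a1 and Atp5b, the alpha and beta subunits that form the catalytic head of complex V, had log2 differences of 1.24 (standard error 0.47, adjusted p = 0.123) and 0.76 (standard error 0.50, adjusted p = 0.319). Atp5a1 was at 375, 118 and 150 TPM in GKO non-tumours and 488, 305 and 594 in GKO tumours. GKO non-tumour 1 was the high sample and overlapped the tumours. Sdha, the flavoprotein of complex II, had a difference of 0.85 (adjusted p = 0.261) and Sdhb, the iron-sulfur subunit, -0.14 (adjusted p = 0.730). Of the core subunits of complex I, Ndufs1 had 0.23 (adjusted p = 0.596) and Ndufv1, which binds NADH, 0.08 (adjusted p = 0.890). In complex III Uqcrc1 had -0.22, the Rieske protein gene Uqcrfs1 -0.54 and Cyc1 (cytochrome c1) 0.19, with adjusted p-values of 0.702, 0.127 and 0.711. In complex IV Cox4i1 had -0.52 and Cox5a 0.71, with adjusted p-values of 0.151 and 0.418.

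The same question in WT mice was asked with WT tumours and WT non-tumours. In limma 0 members passed the adjusted threshold, which 4.23% of the 14003 genes tested did. At an unadjusted p under 0.05 there were 16 of 106 members in limma, 15 of them lower. Of all genes tested 2791 had such a p, 1488 of them lower. Voom on the recovered reads also called 0 members (21 unadjusted). A fit over all 18 samples, which share 1 estimate of the spread, called 8 members, all lower, beside 1649 of 14003 genes. Without WT tumour 3, 1 member was called, beside 1363 of 14075 genes. The nuclear genes leaned down all the same, with a negative difference in 78 of 93 and a median of -0.35, beside -0.02 over all genes. In 31 nuclear genes every tumour was below every non-tumour (13.9% of all genes tested). The lowest adjusted p of a member was that of Ndufs7, a core subunit of complex I, named after its values were seen. It was at 312, 289 and 283 TPM in WT non-tumours and 168, 185 and 148 in WT tumours, a log2 difference of -0.82 (standard error 0.21, adjusted p = 0.0941). Medians by complex were close to each other, at -0.38, -0.37, -0.41, -0.40 and -0.34 for complexes I to V.

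Mitochondrial genes in this comparison had a median log2 difference of -0.09, and no group separated. Its sign turned with single samples. It was 0.47 without WT non-tumour 1 and 0.14 without WT tumour 3, -0.24 and -0.51 without WT non-tumours 2 and 3, and -0.32 and -0.41 without WT tumours 1 and 2. mt-Co1 was at 27278, 12162 and 8775 TPM in WT non-tumours and 11713, 8209 and 7189 in WT tumours, so that WT non-tumours 2 and 3 overlapped the tumours and WT non-tumour 1 did not. WT non-tumours 2 and 3 were also left out together, chosen after their low values were seen. This left only WT non-tumour 1, and the median was -1.21.

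The study's question of how loss of miR-181ab1 alters tumours was addressed by GKO against WT tumours. In limma 0 members were called, while 0.0215% of all 13964 genes tested (3 genes) were. At an unadjusted p under 0.05 there were 14 of 106 members in limma, all lower, 12 of them mitochondrial. Of all genes tested 1238 had such a p, 488 of them lower. Voom called 0 members (14 unadjusted). Without WT tumour 3, 2 members were called, beside 147 of 14031 genes. All 13 mitochondrial genes were lower on average in GKO tumours, with a median log2 difference of -1.35, or -0.96 over the 7 abundant genes, while the nuclear genes had 0.10 and all genes 0.09. In 9 mitochondrial and 4 nuclear genes every GKO tumour was below every WT tumour (4.78% of all genes tested), and in 10 nuclear genes every one was above (9.88%). Short genes were lower in general here as well. Among the other genes with at least 30 TPM, those under 1000 bases had a median of -0.14 (n = 222) and longer ones 0.12 (n = 2003). The median exonic length was 1144 bases for the 7 abundant genes and 514.5 for the other 6, and the part of length was not tested.

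The member with the lowest adjusted p was mt-Nd5, at 2737, 1844 and 1831 TPM in WT tumours and 953, 807 and 726 in GKO tumours (log2 difference -1.35, standard error 0.26, adjusted p = 0.296). mt-Cytb was at 11536, 9268 and 6839 TPM and at 4658, 5513 and 3872 (log2 difference -0.96, standard error 0.29, adjusted p = 0.465). mt-Co1 was at 11713, 8209 and 7189 TPM and at 7600, 5650 and 6334, where WT tumour 3 lay below GKO tumour 1. The abundant genes thus separated the genotypes in 5 of 7 cases without passing the test across all genes. For mt-Co2 the WT tumours themselves were apart, with 134 and 184 TPM in WT tumours 1 and 2 and 38.4 in WT tumour 3, close to GKO tumours at 30.4, 37.7 and 8.19. With WT tumours 1 and 2 averaged as 1 sample, the median of the mitochondrial genes was -1.31 and that of the nuclear genes 0.14.

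Among nuclear genes, Cox7a1, the isoform of heart and skeletal muscle, was at 36.6, 46.4 and 9.32 TPM in WT tumours and 6.07, 8.91 and 4.55 in GKO tumours (log2 difference -1.85, standard error 0.58, adjusted p = 0.465). The 2 high samples were WT tumours 1 and 2. Ndufv1 was at 105, 116 and 113 TPM in WT tumours and 168, 139 and 141 in GKO tumours (log2 difference 0.42, standard error 0.20, adjusted p = 0.585), without overlap. Atp5b had a difference of 0.68 (standard error 0.31, adjusted p = 0.575) and Atp5a1 of 0.64 (standard error 0.33, adjusted p = 0.612).

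Whether the tumour effect differs between genotypes was tested as an interaction. In limma 0 members passed, beside 0.0142% of 14106 genes (2 genes), and voom called 0 (22 unadjusted). At an unadjusted p under 0.05 limma gave 22 members, namely all 13 mitochondrial genes, each lower, and 9 of 94 nuclear genes. Of all genes tested 1483 had such a p, 362 of them lower. Without WT non-tumour 1, 1 mitochondrial gene was called lower. The median over the mitochondrial genes was -2.55, and mt-Nd5 came nearest with a log2 difference of -2.55 (standard error 0.57, adjusted p = 0.344). The median was -1.62 with WT non-tumours 2 and 3 left out together, which left only WT non-tumour 1 in that group. For the nuclear genes the median was 0.14, beside 0.23 over all genes. The tumour effect on the mitochondrial genes is therefore not shown to differ between the genotypes.

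**Figure D4:**
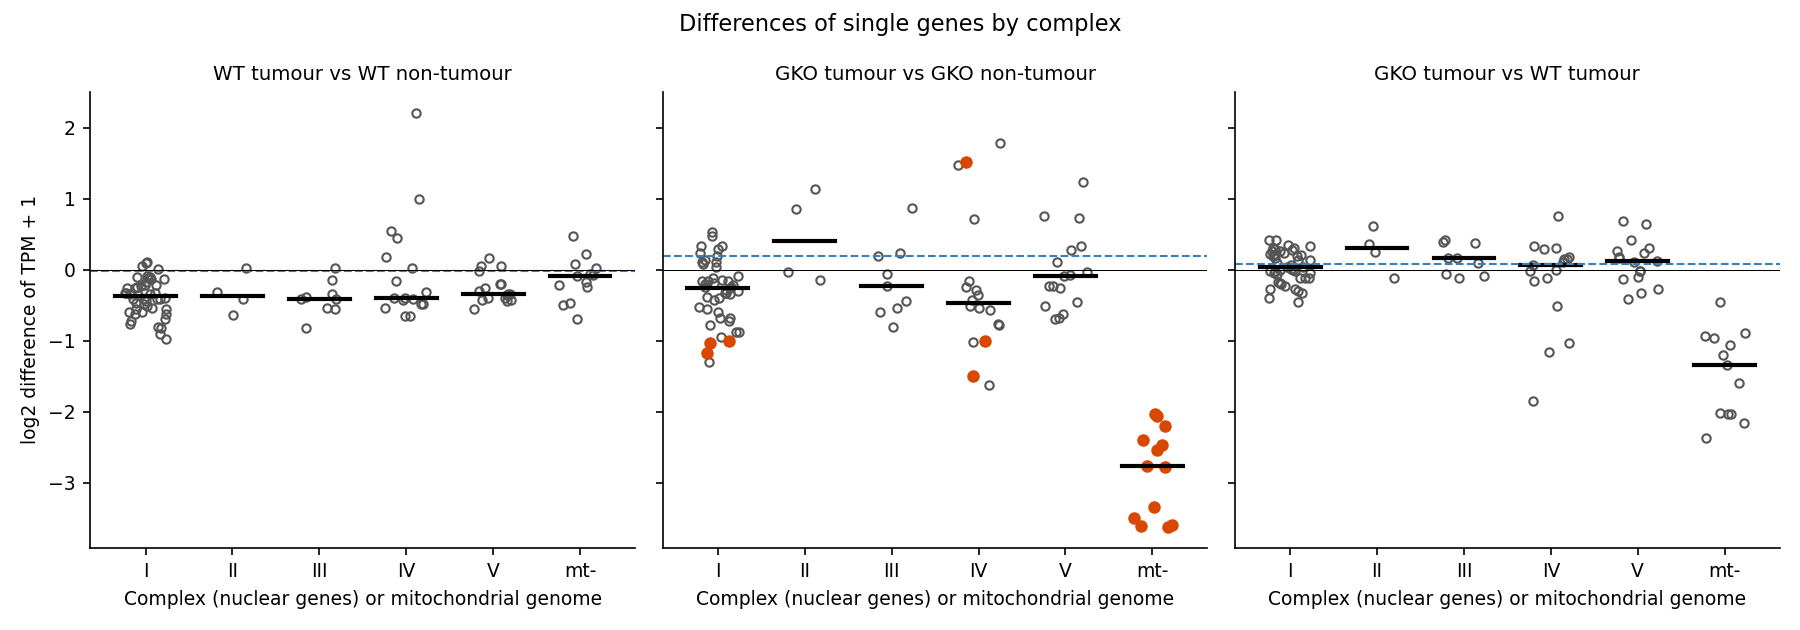
Log2 differences of TPM + 1 of single genes in 3 comparisons, with nuclear genes by complex (I to V) and the 13 mitochondrial genes at the right of each panel. Filled points had an adjusted p under 0.05, bars are medians and the dashed line is the median of all genes tested. All 13 mitochondrial genes were called lower in GKO tumours against GKO non-tumours, and in GKO against WT tumours all 13 lay below 0 with none called.

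Tumours were also set against normal livers of the same genotype, a comparison added after the other results were known. In WT mice 24 members fell, 9 of them mitochondrial, and 2 rose, beside 6.33% lower and 21.2% higher among 13644 genes. In GKO mice 23 fell, all 13 mitochondrial genes among them, and 5 rose, beside 3.93% lower and 16.2% higher among 13928 genes. Medians of the mitochondrial genes were -1.57 in WT and -2.68 in GKO mice, those of the nuclear genes -0.26 and -0.18, and those of all genes 0.29 and 0.31. The tumours are those of the comparisons above, so these counts are no independent evidence. In WT mice the count of 26 was 2 without WT normal liver 1, 12 without WT normal liver 2 or 3, 9 without WT tumour 1 and 13 without WT tumour 2, and it was 12 with WT tumours 1 and 2 averaged as 1 sample. In GKO mice the count of 28 was 16 without GKO normal liver 1, 14 without GKO normal liver 2, 17 without GKO tumour 1 and 16 without GKO tumour 3.

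In WT tumours against normal livers mt-Nd2 (26786, 31187 and 16069 TPM against 8268, 6579 and 4746) had a log2 difference of -1.90 (standard error 0.34, adjusted p = 0.00954) and mt-Co1 of -1.80 (standard error 0.35, adjusted p = 0.0128). The groups did not overlap for either. mt-Co3 and mt-Co2, with uncertain levels, had -2.02 each. Nuclear genes that fell included Uqcrfs1, at 452, 460 and 513 TPM in WT normal livers and 259, 231 and 280 in WT tumours (log2 difference -0.89, standard error 0.18, adjusted p = 0.0138). Cox4i1, the common form of a complex IV subunit, was at 1258, 1204 and 1548 TPM and at 827, 869 and 505 (log2 difference -0.90, standard error 0.27, adjusted p = 0.0476). Cox8b, an isoform of muscle and brown fat, had at most 23 reads and was listed at 0 in all WT tumours, against 4.50, 3.44 and 1.60 TPM in WT normal livers.

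In GKO tumours against GKO normal livers mt-Nd4 (15025, 8536 and 12018 TPM against 1663, 2595 and 1490) had a log2 difference of -2.63 (standard error 0.32, adjusted p = 0.00439). The 5 largest falls were those of mt-Co2 (-3.70), mt-Atp6 (-3.66), mt-Atp8 (-3.60), mt-Co3 (-3.52) and mt-Nd4l (-3.20), all from the copied stretch or beside it. The 5 genes that rose were Atp5a1 (1.52, adjusted p = 0.0313), Cox7a2l (1.49, adjusted p = 0.0102), Ndufa4l2 (1.23, adjusted p = 0.0478), Sdhd, a membrane anchor of complex II (1.23, adjusted p = 0.0308), and Ndufaf7, a methyltransferase that helps to assemble complex I (0.91, adjusted p = 0.0272). With TPM rescaled without the mitochondrial genes 1 member was called higher, and 0 were after median centring. The direction was kept in all 16 alternatives for each of the 5 genes, while the call was kept in 15 for Cox7a2l, 8 for Atp5a1, 6 each for Ndufa4l2 and Ndufaf7 and 5 for Sdhd. The lowest log2 differences were 1.14 for Cox7a2l (median centred, adjusted p = 0.0501), 1.15 for Atp5a1, 0.89 for Ndufa4l2, 0.57 for Ndufaf7 and 0.88 for Sdhd.

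Cox7a2l rose in both genotypes as deposited. It was at 78.6, 72.0 and 123 TPM in WT normal livers and 167, 180 and 274 in WT tumours (log2 difference 1.18, standard error 0.29, adjusted p = 0.0265). In GKO mice it was at 69.0, 116 and 87.0 TPM and at 298, 225 and 236. WT non-tumour 2, at 183 TPM, overlapped the WT tumours, while GKO non-tumour 1, the highest GKO non-tumour at 197 TPM, was below all GKO tumours (log2 difference 1.47, adjusted p = 0.0961). In WT tumours against normal livers the difference of Cox7a2l was at least 0.80 in all 17 alternatives, the lowest value being that after median centring. The call was kept in 9 of them, with an adjusted p of up to 0.105 in the others.

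Isoforms that other tissues use were at low levels in the liver. Cox6a2, the striated muscle form of Cox6a1, reached 28.0 TPM in WT tumour 3 and 26.1 in GKO tumour 1 and was between 0 and 5.91 TPM in the other 16 samples. It was called higher in WT tumours against normal livers (log2 difference 2.91, standard error 0.74, adjusted p = 0.0291), and GKO tumours 2 and 3 were at 1.08 and 0.358 TPM. The call was lost in 7 of 17 alternatives, namely without the filter, after median centring, with voom, without any 1 of the WT normal livers and without WT tumour 2. The adjusted p reached 0.101, and the difference lay between 2.04 and 5.30 over the 17. The 5 striated muscle markers added up to at most 0.238 TPM in any sample, with Myh4 at 0 in all 18. Cox6b2, the testis form of Cox6b1, was between 0.328 and 6.18 TPM. The common forms Cox6a1, Cox6b1, Cox7a2 and Cox8a had mean levels of 2432, 799, 347 and 1445 TPM.

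**Figure D5:**
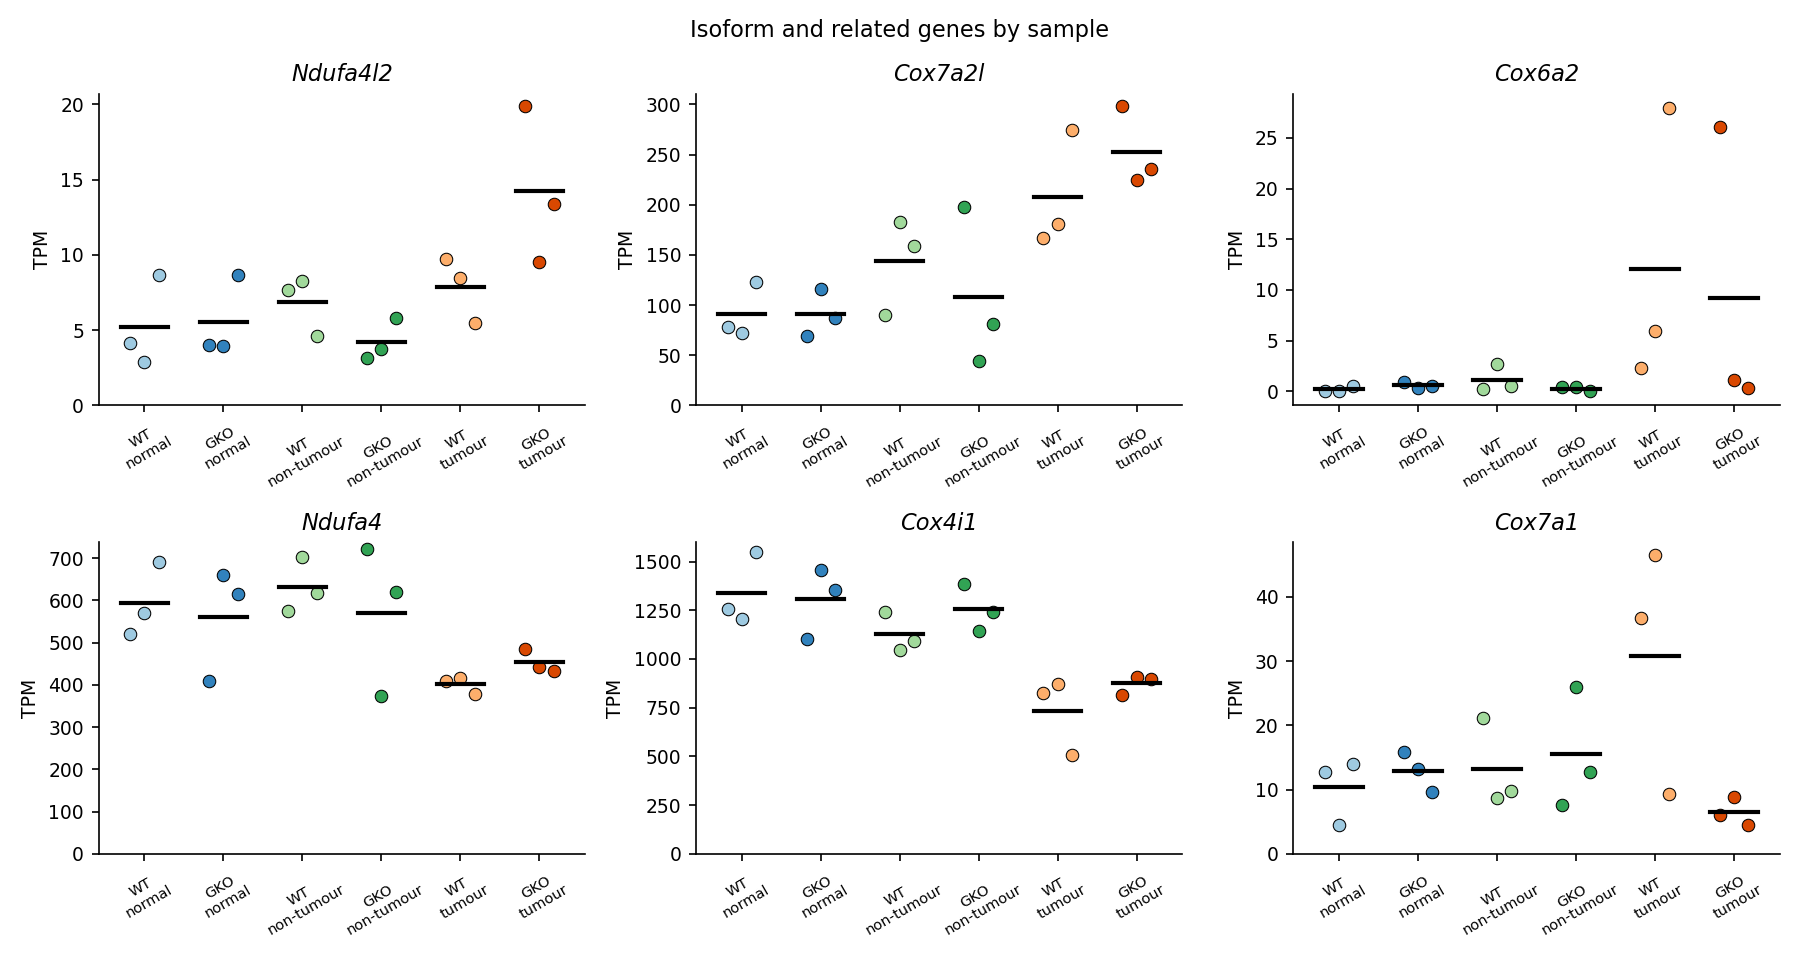
TPM of 6 nuclear genes in each of the 18 samples, with the group mean as a line. Ndufa4l2 was highest in the 3 GKO tumours on average, Cox7a2l was higher in all 6 tumours than in the normal livers, Cox6a2 was high in 1 tumour of each genotype, and Cox7a1 was high in WT tumours 1 and 2.

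Livers without tumours were compared next. Between untreated GKO and WT normal livers limma called 0 members (0% of 13099 genes), and voom called 0. At an unadjusted p under 0.05 there were 0 members in limma, beside 519 of all genes. The medians were -0.28 over the mitochondrial and -0.04 over the nuclear genes, beside 0.06 over all genes. The normal livers varied within each genotype, as mt-Co1 shows with 34108, 42741 and 19946 TPM in WT and 32555, 15842 and 45368 in GKO mice.

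Between GKO and WT non-tumours limma called 0 members (0% of 13768 genes), and voom called 0 (13 unadjusted). At an unadjusted p under 0.05 there were 9 of 107 members in limma, beside 799 of all genes. All 13 mitochondrial genes were higher on average in GKO non-tumours, with a median log2 difference of 1.20, and 3 of them did not overlap (3.88% of all genes tested). mt-Nd1 was at 16242, 13631 and 9737 TPM in WT and 16767, 42633 and 21036 in GKO non-tumours. mt-Nd2 and mt-Nd6 were the other 2 such genes, named after their values were seen. With WT non-tumours 2 and 3 left out together, chosen after their low values were seen, only WT non-tumour 1 remained and the median was 0.13. The nuclear genes had a median of -0.03, or 0.14 after median centring, beside -0.15 over all genes.

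The response to DEN outside tumours was asked within each genotype. In WT mice limma called 0 members between non-tumours and normal livers (0.00744% of 13440 genes), and voom called 0 (29 unadjusted). In limma 22 of 107 members had an unadjusted p under 0.05, 14 of them lower. Of all genes tested 3282 had such a p, 274 of them lower. The mitochondrial genes had a median log2 difference of -1.34, and in 5 of them every non-tumour was below every normal liver, as it was in 10 nuclear genes (2.9% of all genes tested). mt-Nd1 had a difference of -1.24 (standard error 0.27, adjusted p = 0.115), which was the lowest adjusted p of a member. Without WT non-tumours 2 and 3, which left only WT non-tumour 1, the median of the mitochondrial genes was -0.36. Of the nuclear genes 14 were higher in every non-tumour, beside 31% of all genes, and their median was 0.05 beside 0.32.

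In GKO mice limma called 0 members (0% of 13530 genes), and voom called 0 (0 unadjusted). In limma 0 members had an unadjusted p under 0.05, beside 703 of all genes. Medians were -0.06 over the mitochondrial and 0.01 over the nuclear genes, beside 0.08 over all genes. GKO non-tumour 2 had the highest mitochondrial share of all 18 samples, and the other GKO non-tumours were near WT non-tumour 1.

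Genes that act on mitochondrial RNA were examined as lists. Of 16 genes for transcription and replication of the mitochondrial genome, 0 were called between GKO tumours and GKO non-tumours, with 8 positive and a median of 0.01. Polrmt, the mitochondrial RNA polymerase, had a log2 difference of -0.19 (adjusted p = 0.601) and Tfam, which packs the genome and starts transcription, 0.38 (adjusted p = 0.273). Of 17 genes for processing and stability of mitochondrial RNA, 0 were called, with a median of 0.09. Lrpprc, which stabilises mitochondrial mRNAs with Slirp, had a difference of 0.01 (adjusted p = 0.980) and Slirp -0.06 (adjusted p = 0.864). Of 10 regulators of mitochondrial biogenesis 0 were called, with a median of 0.35, and the coactivator Ppargc1a had -0.13 (adjusted p = 0.759). Medians of these lists are to be read beside the 0.20 of all genes.

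The other mitochondrial lists were read in the same comparison of GKO tumours and GKO non-tumours, beside 11.7% called of all genes tested. Of 77 mitochondrial ribosomal protein genes 1 (Mrpl50) rose and 0 fell, with a median of 0.19. Of 39 assembly factors outside the symbol rule 1 (Atpaf1, an assembly factor of complex V) rose and 0 fell, with a median of 0.15. Of 16 citric acid cycle genes 0 were called, with 12 positive and a median of 0.45. Of 18 genes of mitochondrial import and carriers 0 were called, with 17 positive and a median of 0.56, and Tomm20, an import receptor, had a difference of 1.53 (adjusted p = 0.0623). Of 9 genes of reactive oxygen handling and uncoupling 0 were called, with a median of -0.30. Mrpl50 and Atpaf1 were named after their values were seen. In GKO against WT tumours 0 genes of any of these lists were called, and the medians of the transcription list and the citric acid cycle were 0.23 and 0.41. In WT tumours against WT non-tumours these medians were -0.33 and -0.45, and Gpx1 (glutathione peroxidase 1) alone fell among all these lists (log2 difference -2.40, adjusted p = 0.0480).

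Markers of other cells also differed between tumours and non-tumours. In GKO mice 5 of 8 fibroblast markers rose and 1 (Dcn) fell, and their summed level was 46.1 to 69.4 TPM in non-tumours and 95.8 to 185 in tumours. Of 7 endothelial markers 2 rose, with sums of 57.0 to 75.3 and 59.8 to 93.2 TPM. Of 8 macrophage markers 2 (Marco and Timd4) fell, with sums of 109 to 596 and 35.4 to 122 TPM. In WT tumours the fibroblast, endothelial and macrophage sums were 51.2 to 92.6, 63.0 to 79.3 and 32.1 to 69.9 TPM. Sums of T cell and cholangiocyte markers were at most 25.0 TPM in any sample, and those of blood 231 to 1099 TPM. In GKO tumours 3 hepatocyte markers (Alb, Apoa1 and Fgb) rose, and the blood marker Alas2 fell, beside 0 called T cell or cholangiocyte markers. In WT tumours Alb alone passed among all these markers, and it rose. Apart from Myh4 no marker was at 0 in all samples. Their part in the differences of the oxidative phosphorylation genes was not tested.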

How the data were processed

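Total RNA of 18 liver samples in 6 groups of 3 was sequenced by the authors. Per the labels and the submitters' processing notes, reads were aligned to mm10 with STAR (2.7.3a) and assigned to genes with featureCounts (2.0.0, Subread), and the deposited values are TPM per gene. The annotation, strandedness and treatment of reads with several matches are not given in the sources used here. TPM has a fixed total and keeps no depth. Multiplied by the exonic length of GENCODE M21, 97.95% to 98.67% of low values gave whole reads within 0.02, which supplied the read numbers. No column lacked a sample.

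Differences were fitted with limma (3.58.1, R 4.3.3) on log2(TPM + 1), each comparison in its own fit, leaving out genes whose mean was under 0.5 TPM. Standard errors are moderated, p-values are two-sided and adjusted by the Benjamini-Hochberg method over all genes tested, and called means an adjusted p under 0.05. Fold changes on this scale understate those of low genes. The fit was checked on simulated data. Copies were sought as shared 50-base words among GENCODE transcripts. Alternatives were other pseudocounts, filters and scalings, 1 fit of all samples, limma without a trend, voom, the replicate number as a block, and leaving out samples. The labels do not pair same-numbered samples, so numbers were not treated as pairs. Correlations of their deviations from group means lay between -0.30 and 0.25. All 3 were positive in GKO against WT tumours (0.0998, 0.116 and 0.194) and in GKO tumours against GKO non-tumours (0.119, 0.069 and 0.041).

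The members and the lists (transcription, RNA processing, biogenesis, assembly, citric acid cycle, import, reactive oxygen, ribosomal proteins and cell markers) were chosen with earlier results of these data known. Genes named were the mitochondrial members, a list of core and other well-known nuclear subunits, and isoform pairs. The 5 largest called changes without overlap in each direction and comparison were also named. Those next to the level limit and those of highest level were named too. The result of 1 marker list is not reported here.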

Additional observations from a re-analysis of the deposited data

Results flagged for a closer look

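In 3 members the GKO and WT samples separated fully in opposite directions in tumours and in non-tumours. These were 3 of 106 members tested in both, or 2.83%, beside 114 of all 12806 genes tested in both, or 0.89%. mt-Nd2 had a log2 difference between GKO and WT of -1.20 in tumours and 1.10 in non-tumours, and mt-Nd6 had -1.07 and 0.94. Ndufaf6, an assembly factor of complex I, went the other way, with 0.28 in tumours and -0.24 in non-tumours. It was at 19.6, 18.3 and 17.5 TPM in WT and 22.4, 20.6 and 25.1 in GKO tumours, and at 25.2, 25.0 and 24.6 TPM in WT and 23.7, 17.4 and 22.4 in GKO non-tumours. The test of the difference itself did not pass for any of them, with adjusted p-values of 0.417, 0.417 and 0.479 (limma interaction). WT non-tumours 2 and 3, which were low in all 13 mitochondrial genes, enter the mitochondrial differences in non-tumours but not those in tumours. In non-tumours the median of the mitochondrial genes was 1.20, and 0.85 without GKO non-tumour 2. It was 0.13 with WT non-tumours 2 and 3 left out together. These were chosen after their low values were seen, and only WT non-tumour 1 then remains. The change of the median therefore cannot show what the difference depends on.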

How the results depend on the processing

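No called direction of a gene was reversed under any alternative. Counts of called members moved by over 1.5 times under these settings. Without the filter on low values there were 7 in GKO tumours against non-tumours, 7 in WT tumours against normal livers and 14 in GKO tumours against normal livers. One fit of all 18 samples gave 8 in WT and 32 in GKO tumours against non-tumours, beside 1649 and 2722 of all genes. Voom gave 33 in the latter, beside 1786 of all genes. WT tumours against normal livers gave 48 after median centring and 12 with WT tumours 1 and 2 averaged. The replicate block gave 15 there, and the samples share only a number. In GKO tumours against non-tumours the block gave 17 beside 19, a smaller move. Leaving out 1 sample gave 8 to 20 (GKO tumours against non-tumours), 0 to 1 (WT, the 1 without WT tumour 3), 0 to 2 (GKO against WT tumours, the 2 without WT tumour 3), 2 to 29 (WT tumours against normal livers), 14 to 29 (GKO) and 0 to 1 (interaction).

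Medians of mitochondrial genes over the 7 abundant genes were -2.40 in GKO tumours against non-tumours, -2.21 against normal livers and -0.96 against WT tumours. Leaving out WT non-tumours 2 and 3 was added after seeing their low values and left only WT non-tumour 1 in that group. Medians over all 13 mitochondrial genes were then -1.21 (WT tumours against non-tumours) and 0.13 (GKO against WT non-tumours). They were -0.36 for WT non-tumours against normal livers and -1.62 for the interaction. Leaving out 1 sample, those over all 13 were -3.04 to -2.35 in GKO tumours against non-tumours.

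Medians of nuclear genes moved with scaling. Rescaled without mitochondrial genes, median centred and with voom they were -0.42, -0.48 and -0.49 in GKO tumours against non-tumours, -0.43, -0.65 and -0.53 in WT and -0.36, -0.53 and -0.47 in GKO tumours against normal livers, -0.087, -0.33 and -0.15 in WT non-tumours against normal livers (-0.083 also without Alb), and -0.013, -0.080 and -0.043 in the interaction. In GKO tumours against non-tumours the medians of all genes under the same settings were 0.063, -0.036 and 0.011. Rescaled there without both mitochondrial genes and Alb, the nuclear median was -0.29, beside 0.16 over all genes. GKO against WT non-tumours gave nuclear medians of 0.14 centred and 0.11 with voom. Leaving out 1 sample gave -0.30 to -0.11 (GKO tumours against normal livers), -0.40 to -0.17 (WT), -0.026 to 0.19 (GKO against WT tumours) and -0.020 to 0.22 (interaction). Rescaled nuclear sums were 35450, 34515, 34057 and 23932 TPM in WT and GKO normal livers, GKO non-tumours and GKO tumours. Few reads limit mt-Atp8, Cox8b, Cox6a2 and Cox6c2. Apart from the stated construction of each setting, the cause was not tested.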

Other observations

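The gap between long and short genes differed among samples. Over the other genes, the median log2 level relative to the normal livers of those with at least 1000 exonic bases minus that of shorter ones was 0.86 in GKO tumour 3, 0.67 in WT tumour 3 and 0.62 in GKO tumour 1. It was 0.51 and 0.53 in WT non-tumours 2 and 3 and between -0.14 and 0.28 in the other 13 samples. These 5 samples include the 2 non-tumours with the lowest mitochondrial share. They also include the tumours with the lowest share within each genotype, WT tumour 3 at 3.35% and GKO tumours 1 and 3 at 2.29% and 2.19%. GKO tumour 2, with a share of 2.94%, had a gap of 0.26. The part of this gap in the differences of the oxidative phosphorylation genes was not tested.

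The mitochondrial ribosomal RNAs stood far below the abundant mitochondrial mRNAs. mt-Rnr1 was at 391 ± 172 TPM in WT normal livers and 156 ± 40.2 in WT tumours (SD, n = 3 each), and at 34.6, 78.5 and 67.0 in GKO tumours. Atpif1, the ATP synthase inhibitor outside the symbol rule, was at 84.8, 142 and 27.5 TPM in WT tumours and 76.3, 55.2 and 33.2 in GKO tumours, against 11.7 to 22.9 TPM in normal livers. Ndufb1-ps was at 59.9 to 73.7 TPM in WT tumours, 39.8 to 77.0 in GKO tumours and 88.3 to 177 in all other samples.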
